A study of Drosophila melanogaster with 21 samples.

Results

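The cells described here were Drosophila S2 cells, an established line of hemocyte-like character, transfected by calcium phosphate with interfering RNA against CoVa, followed from the first sampled time to 168 hr after transfection. CoVa, listed as COX5A in the present annotation, encodes subunit Va of the mitochondrial enzyme cytochrome c oxidase, or complex IV. Members were chosen by label alone, as the arrays of CoVa RNAi cells at 168 hr and at the first time of the same experiment, which was 48 hr in experiment 1 and 72 hr in experiments 2 and 3. This gave 6 arrays in 3 pairs of the 21 arrays in the series, and 4 further CoVa RNAi arrays at 96 and 120 hr in experiments 2 and 3 gave the course between. The other arrays were 10 of cells given interfering RNA against GFP, which the fly does not have, at the same times in the same experiments, and 1 of cells without transfection, which was left out. All cells grew in Schneider's medium, each array was one RNA preparation from a whole culture, and the knockdown was transient, so cells with and without effective interference were measured together. In such bulk RNA, fewer cells of a kind and less of a transcript in each cell cannot be told apart.

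Complex IV takes electrons from cytochrome c, passes them to oxygen and pumps protons that drive ATP synthesis. Cells with weak respiration depend more on glycolysis, in which lactate dehydrogenase regenerates the NAD+ that the upstream steps use. Loss of CoVa in flies is known for a metabolic checkpoint that holds cells before DNA synthesis. S2 cells came from late embryos and carry receptors and matrix proteins of hemocytes, the fly's blood cells.

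The values were signal intensities of Affymetrix Drosophila Genome 2 probesets on a linear scale. Of 18769 probesets, 9858 reached a signal of 100 on at least 3 of the 20 RNAi arrays and were tested. The 75th percentile of signal was between 569 and 590.4 at 168 hr and between 479 and 570.4 at the first time in CoVa RNAi cells, lowest in experiment 3 at 72 hr. The 3′ to 5′ signal ratio of the actin control probesets, a measure of RNA integrity, was 1.71 to 2.03 at 168 hr and 1.51 to 1.94 at the first time. Experiment 3 stood apart: the deviations of its arrays from their stage means went against those of the arrays in experiments 1 and 2. Deviations from a mean of 3 arrays must cancel, so part of this opposition is fixed by the calculation. Hemocyte identity was mixed: srp and ush, hemocyte transcription factors, had signals of at least 1162 on every CoVa RNAi array. Other plasmatocyte markers differed on these arrays. The lowest signal was 726 for crq, 855 for vkg and 112 for Col4a1. Pxn ranged from 50.4 to 2004 and eater from 9.6 to 726. Hml, NimC1, He and Sr-CI stayed under 100 on all of them.

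The CoVa transcript itself had signals of 2278, 804 and 3841 at 168 hr in experiments 1, 2 and 3, against 8364, 3361 and 5864 at the first time. It was lower at 168 hr in each experiment, at 27.2%, 23.9% and 65.5% of its first value, though the groups overlap because experiment 3 at 168 hr stood above experiment 2 at 72 hr. At 72, 96, 120 and 168 hr it was 3361, 3710, 2944 and 804 in experiment 2 and 5864, 5839, 4764 and 3841 in experiment 3. GFP RNAi cells had 8413, 8962 and 7060.0 at 168 hr and 7336, 8456 and 7794 at the first time. The mean log2 change in CoVa RNAi cells was -1.5 ± 0.78 (SD, n = 3 pairs), with an exact two-sided sign-flip p of 0.25, the smallest that 3 pairs allow. The limma fit over all probesets gave it an adjusted p of 0.0383. Set against GFP RNAi cells of the same array pair, the transcript was lower by 72.9%, 91.0% and 45.6% at 168 hr in experiments 1, 2 and 3. At the first time it was lower by 60.3% in experiment 2 at 72 hr and by 24.8% in experiment 3 at 72 hr, but not lower in experiment 1 at 48 hr, where CoVa RNAi cells had 8364 and GFP RNAi cells 7336. The weakest reduction at 168 hr was thus in experiment 3, and the first arrays differed in how far the knockdown had gone.

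Between the first time and 168 hr the CoVa RNAi cells changed broadly. With limma and Benjamini-Hochberg adjustment at 0.05, 655 probesets were higher at 168 hr (6.64% of those tested) and 315 were lower (3.2%), 970 in all (9.84%). All 655 and all 315 had the same sign in each of the 3 experiments. Increases were larger than decreases: 205 of the 655 had a log2 change of 1 or more, and 27 of the 315 had a change of -1 or less. The median change was 0.80 among the 655 probesets and -0.56 among the 315, beside 0.08 over all probesets tested. The 3 values at 168 hr lay above all 3 first values for 1498 probesets (15.2%) and below them for 976 (9.9%), against 493 (5.0%) and 391 (3.97%) in GFP RNAi cells. The p-values measure only the spread between these arrays.

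The count of calls moved with the fit, the arrays used and the scaling. The 6 arrays of the 3 pairs alone gave 46 higher and 2 lower, and a fit with no replicate block gave 326 and 124. Without experiment 2 the fit called 0 probesets in either direction, and without experiment 3 it called 64 higher and 10 lower, with 1 residual degree of freedom each and 882 and 1521 probesets at an unadjusted p under 0.05, whereas without experiment 1 it called 469 higher and 205 lower. Scaling to a common median gave 386 higher and 372 lower (50.9% of calls higher), and quantile normalization gave 440 and 439 (50.1% higher), where the values as deposited had 67.5% higher. The median over all probesets moved to -0.03 under both scalings. None of the 655 or 315 probesets took the opposite sign under any alternative. Leaving out an experiment, the block or the middle arrays could not turn a sign, because each probeset had the same sign in every experiment. For the scalings, the smallest change among these probesets was 0.35 in size.

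In GFP RNAi cells the same comparison gave 0 higher and 0 lower probesets with limma (0.0% each), with 1241 at an unadjusted p under 0.05 (12.6%), against 2693 (27.3%) in CoVa RNAi cells. The 655 probesets that were higher in CoVa RNAi cells had a median change of 0.10 in GFP RNAi cells, and the 315 lower ones had 0.06. The change in CoVa RNAi cells minus that in GFP RNAi cells was tested on the 10 matched pairs of arrays, and passed the threshold upwards for 1192 probesets (12.1%) and downwards for 983 (9.97%). Counts of this test in the gene lists are to be read beside these shares. Of the 655 higher probesets 517 also passed this test, and of the 315 lower ones 288 did. The balance of this test turned round with the scaling, to 722 upwards and 1217 downwards at a common median (37.2% of calls upwards) and 1015 and 1159 after quantile normalization. Leaving out experiment 2 or 3, with 1 residual degree of freedom, removed nearly all calls of this test as well, with 0 in each direction by limma without experiment 2 (1982 unadjusted), and 1 upwards and 0 downwards without experiment 3 (3037 unadjusted).

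**Figure D1:**
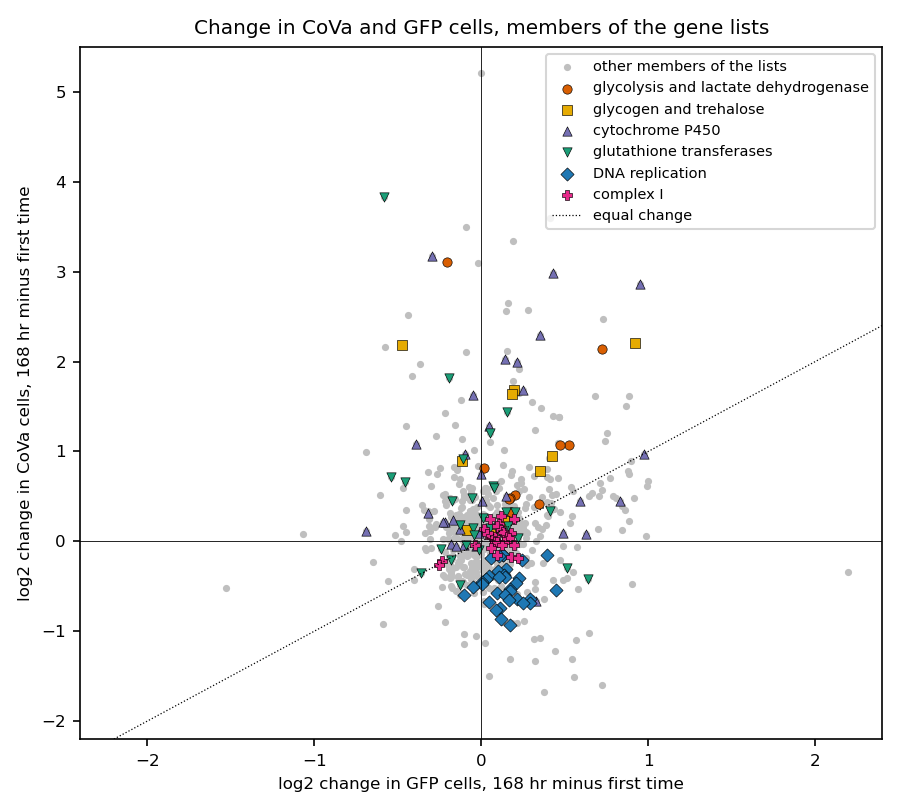
Log2 change in signal at 168 hr against the first time in CoVa RNAi cells (vertical axis) and in GFP RNAi cells (horizontal axis). Each point is a named probeset or a kept member of the gene lists. Members of the glycolysis, glycogen and trehalose, cytochrome P450, glutathione transferase, DNA replication and complex I lists are coloured, the others grey. MFS3 lay highest, at 5.21 on the vertical axis, and every DNA replication member lay under 0 on it.

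The course in experiments 2 and 3 was gradual. Against 72 hr, limma called 0 probesets at 96 hr (659 at an unadjusted p under 0.05, 6.68%), 2 higher at 120 hr (0.0203%) and 0 lower (1450 unadjusted, 14.7%), and 469 higher (4.76%) and 205 lower (2.08%) at 168 hr, 674 in all (6.84%). The 2 called at 120 hr were both probesets of CG30022, which encodes a mitochondrial hydrolase. Between 120 and 168 hr 0 probesets passed in either direction, with 765 unadjusted (7.76%). The 655 probesets that were higher had median changes of 0.36, 0.47 and 0.81 at 96, 120 and 168 hr against 72 hr. The 315 lower ones had -0.07, -0.31 and -0.62, so at 96 hr their median was still near 0. These medians describe probesets chosen partly on the same arrays.

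Probesets chosen by their change in experiment 1 alone gave a partial check of the course in experiments 2 and 3. The signal filter used the arrays of all experiments. A dim probeset could pass it through high signals at 168 hr in experiments 2 and 3, and then had to be higher there. The counts below are thus partly fixed by the filter, and how far was not tested. In experiment 1, 261 probesets changed by at least 1 on the log2 scale between 48 and 168 hr. At 168 hr against 72 hr, 248 of them were higher in experiment 2 and 253 in experiment 3, beside 5843 and 5709 of all 9858 probesets. Their median change at 96, 120 and 168 hr was 0.30, 0.61 and 1.11 in experiment 2 and 0.50, 0.65 and 1.18 in experiment 3. GFP RNAi cells had medians for the same probesets at 168 hr of 0.01 in experiment 2 and 0.21 in experiment 3. The 115 probesets that changed by -1 or less in experiment 1 carried over less: their median at 168 hr was -0.29 in experiment 2, where 77 were lower, and 0.00 in experiment 3, where 56 were lower. GFP RNAi cells had 0.21 and 0.46 for these 115 probesets. With the arrays scaled to a common median, 110 probesets met the same rule, and their medians in CoVa RNAi cells were -0.48 and -0.11. The stage compared also differed, since experiment 1 began at 48 hr.

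**Figure D2:**
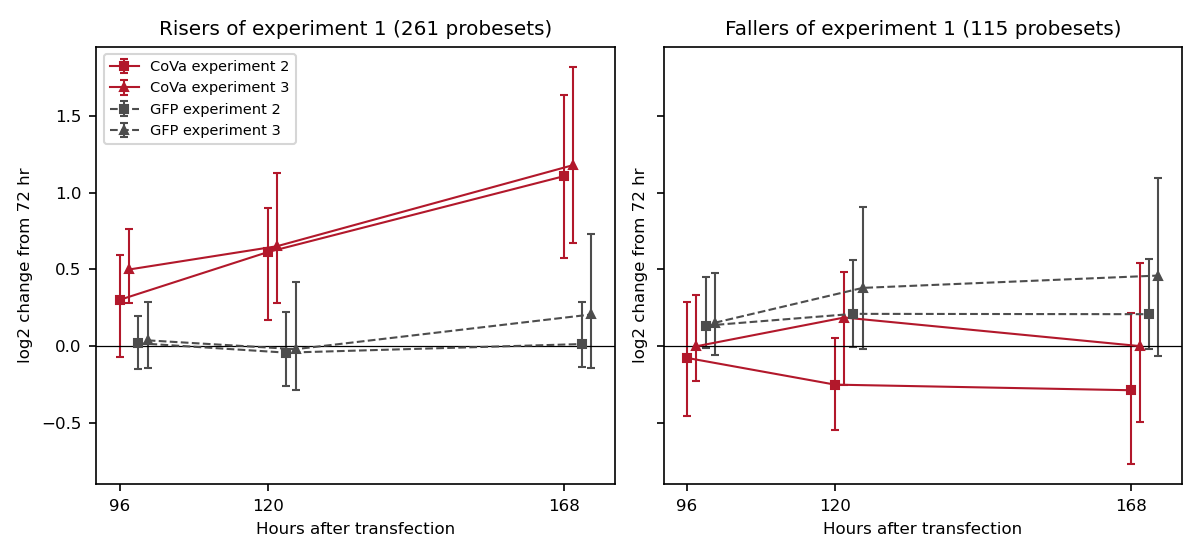
Median log2 change against 72 hr (points, bars from the lower to the upper quartile) at 96, 120 and 168 hr in experiments 2 and 3, for the probesets that changed by at least 1 or by -1 or less in experiment 1, in CoVa and in GFP RNAi cells. The 261 probesets that were higher in experiment 1 reached medians of 1.11 and 1.18 at 168 hr in CoVa RNAi cells, and the 115 lower ones reached -0.29 and 0.00.

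Genes of sugar use rose together. Of 10 glycolytic genes measured, counting lactate dehydrogenase, 9 were higher at 168 hr and 0 lower, with a median change of 0.66, against 0.19 in GFP RNAi cells and 0.08 over all probesets. The medians were 0.57, 0.86 and 0.76 in experiments 1, 2 and 3. For 6 of the 10 the change also exceeded that in GFP RNAi cells by the test of the difference. The 9 calls became 5 at a common median, with no filter or without experiment 1, 1 without experiment 3 or in the 6 paired arrays alone, and 0 without experiment 2. Ldh, which turns pyruvate into lactate, had signals of 5358, 7367 and 6434 at 168 hr in experiments 1, 2 and 3, against 914, 205 and 1762 at the first time. All values at 168 hr lay above all first values, a 6.65-fold change (log2 3.11 ± 0.55 SE, limma adjusted p = 0.0219). At 72, 96, 120 and 168 hr Ldh was 205, 2626, 2833 and 7367 in experiment 2 and 1762, 4536, 5271 and 6434 in experiment 3, so much of its change had come by 96 hr. Ldh in GFP RNAi cells was 9.6, 180.3 and 611 at 168 hr and 291, 34.6 and 373 at the first time, with no common direction. A signal of 9.6 was the lowest value on every array and recurred there, so it is read as a floor.

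Pfk, phosphofructokinase, the main control point of glycolysis, had 1750.2, 1659 and 1981 at 168 hr and 383, 288 and 499.8 at the first time, a 4.61-fold change (adjusted p = 0.000706). Pfk was also higher by 0.72 on the log2 scale in GFP RNAi cells, a change that did not pass there, and the difference between the changes was 1.42 (adjusted p = 0.00228). Tpi, triose phosphate isomerase, had 6884, 6683 and 6712 at 168 hr and 3262, 2772 and 3631 at the first time. Its values at 168 hr were close to one another and all above the first ones. Hex-A, the hexokinase that traps glucose in the cell, was 1873, 2319.8 and 2329.6 at 168 hr and 1153, 1285 and 702 at the first time. Pgk, phosphoglycerate kinase, did not pass, with 1078, 1412 and 1193 at 168 hr and 1584, 755 and 755 at the first time (log2 change 0.32, adjusted p = 0.461). The Pgk groups overlap, and every one of these values lay under those of GFP RNAi cells, which were 3179, 3005 and 3327 at 168 hr and 2719, 2715 and 2957 at the first time.

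Genes of glycogen and trehalose, the stored and the circulating sugar of insects, gave 7 higher and 0 lower of 10, with a median change of 0.92, against 0.16 in GFP RNAi cells. Each scaling and filter gave 6 or 7 calls, against 5 with no replicate block, 2 in the paired arrays alone or without experiment 3, and 0 without experiment 2. Glyp, glycogen phosphorylase, which frees glucose phosphate from glycogen, was 1847, 1591 and 1836 at 168 hr and 378, 306 and 386 at the first time, a 4.93-fold change. Glyp was also 0.92 higher on the log2 scale in GFP RNAi cells, and its change was larger in CoVa RNAi cells by 1.29 (adjusted p = 0.0015). Pgm1, phosphoglucomutase, which links glycogen to glycolysis, was 1294, 1334 and 1298 at 168 hr and 373, 391 and 433 at the first time. The trehalose transporter Tret1-1 was 692, 1363 and 1728 at 168 hr and 235, 138 and 388 at the first time, and its paralog Tret1-2 was 260.4, 296 and 335 against 94.9, 35.0 and 92.6. For each of these genes the groups did not overlap. Tret1-1 in GFP RNAi cells was 41.1, 64.3 and 148 at 168 hr and 155, 64.1 and 157 at the first time. The list's medians at 96, 120 and 168 hr were 0.68, 0.78 and 1.08 in experiment 2 and 0.51, 0.53 and 1.00 in experiment 3, most of which was present at 96 hr.

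**Figure D3:**
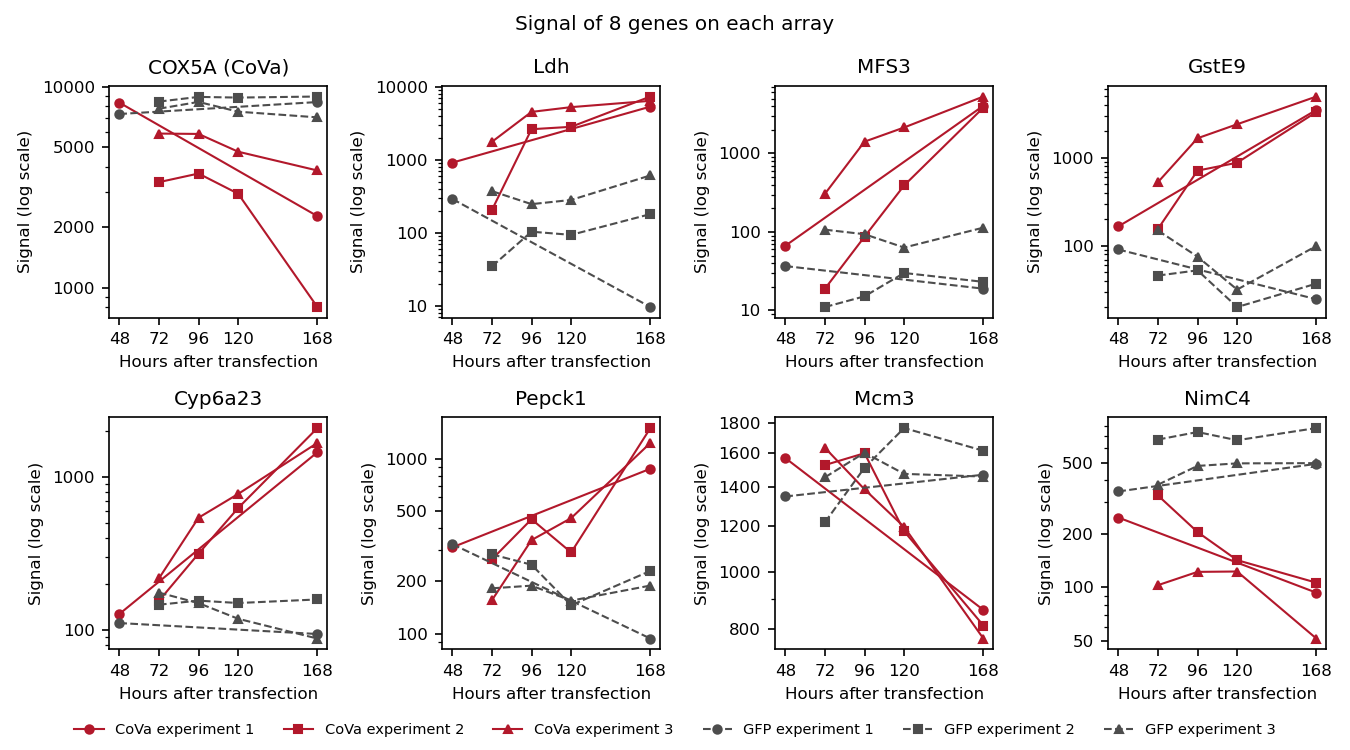
Signal (log axis) of 8 genes by hours after transfection in CoVa and in GFP RNAi cells, one line per experiment. Ldh, MFS3, GstE9, Cyp6a23 and Pepck1 stood higher at 168 hr than at the first time on every CoVa line, and COX5A, Mcm3 and NimC4 stood lower.

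Genes further along carbon metabolism gave mixed counts. Of 14 genes of the tricarboxylic acid cycle, 1 was higher and 0 lower, with a median change of 0.22, against 0.08 in GFP RNAi cells. The one was Men, NADP-dependent malic enzyme, at 1654, 1794 and 1544 at 168 hr and 1003, 977 and 1008 at the first time. Its call was lost when arrays were scaled to a common median. Men was also higher by 0.39 on the log2 scale in GFP RNAi cells, without passing. The test of the difference did not pass for Men (0.33, adjusted p = 0.227). Of 13 genes of glutamate, proline and phosphoenolpyruvate metabolism 5 were higher and 1 was lower, with a median of 0.15, against 0.13 in GFP RNAi cells. Pepck1, phosphoenolpyruvate carboxykinase, which makes phosphoenolpyruvate from oxaloacetate, was 875, 1492 and 1228 at 168 hr and 312, 266 and 155.8 at the first time. In experiment 2 it was 266, 451, 292 and 1492 at 72, 96, 120 and 168 hr, so its change there came after 120 hr. Pepck1 in GFP RNAi cells was 94.3, 229 and 189 at 168 hr and 325, 284 and 182 at the first time, and the difference between the changes was 2.74 (adjusted p = 0.000328). The proline enzymes P5cr-2, which makes proline, and P5CDh1, which forms glutamate in the breakdown of proline, changed by 1.39 and 0.83 on the log2 scale. CG4829, a gamma-glutamyl transferase, was the one lower member, at 119.7, 95.5 and 43.5 at 168 hr and 577, 430.3 and 112 at the first time, at least 3.73-fold lower when the low values are set to a signal of 100. Its groups overlap, because the first value of experiment 3 lay under the 168 hr value of experiment 1. Gpdh1, cytosolic glycerol phosphate dehydrogenase, the other common route by which fly cells regenerate NAD+ in the cytosol, was lower, at 395, 443 and 412 at 168 hr and 783, 1103 and 804 at the first time (log2 change -1.03, adjusted p = 0.00481).

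Enzymes that modify or export foreign and reactive compounds were among the largest increases. Of 33 cytochrome P450 genes that passed the filter, of 81 on the array, 13 were higher and 0 lower, with a median change of 0.45, against 0.01 in GFP RNAi cells. Members that passed only through a high signal at 168 hr had to be higher, so this count is a description. It was 9 with no replicate block, 7 in the paired arrays alone or without experiment 3, and 0 without experiment 2. Cyp6a23 was 1455, 2097 and 1676 at 168 hr and 127, 155 and 217 at the first time, a 10.5-fold change (log2 3.17 ± 0.19 SE, adjusted p = 0.000832). At 72, 96, 120 and 168 hr it was 155, 316, 628 and 2097 in experiment 2 and 217, 542, 776 and 1676 in experiment 3, higher at each step in both. The GFP RNAi cells had 94.0, 158 and 87.8 at 168 hr and 111, 146 and 176 at the first time. Cyp28d1, Cyp6d5 and Cyp6a9 changed by 2.98, 2.86 and 2.29 on the log2 scale. Cyp6d5 was also higher in GFP RNAi cells by 0.95, without passing, and the difference was 1.91 (adjusted p = 0.00341). Cyp12a5, a mitochondrial P450, changed by 0.97 in both CoVa and GFP RNAi cells.

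Of 37 glutathione transferase genes on the array, whose enzymes join glutathione to reactive compounds, 29 passed the filter. Of these 29, 7 were higher and 0 lower, with a median change of 0.26, against -0.04 in GFP RNAi cells. As with the P450 genes, members that passed only through a high signal at 168 hr had to be higher. The difference test called 11 of the 29 upwards and 2 downwards. The 7 calls became 1 in the paired arrays alone, 2 without experiment 3 and 0 without experiment 2. GstE9 was 3515, 3326 and 4987 at 168 hr and 167, 155.7 and 529 at the first time, a 13.9-fold change (log2 3.83 ± 0.21 SE, adjusted p = 0.000706). It was 155.7, 717, 883 and 3326 at 72, 96, 120 and 168 hr in experiment 2 and 529, 1674, 2413 and 4987 in experiment 3. GstE9 in GFP RNAi cells was 24.8, 37.3 and 99.9 at 168 hr and 91.1, 46.0 and 149.6 at the first time. GstE genes are near copies of each other, so a probeset may read more than one of them. GstD5, GstD9 and GstE11 changed by 1.82, 1.43 and 1.20 on the log2 scale. Of 13 UDP-glycosyltransferases that passed the filter, of 35 on the array, 1 was higher and 0 lower. This was Ugt302C1, at 1926, 2346 and 3591 against 428, 428 and 960.0, all above the first values. Of 10 ABC transporters that passed, of 16 on the array, 4 were higher and 0 lower, with rdog changed by 1.92 and CG9663 by 1.79. The same limit of the filter holds for both lists.

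Of 14 antioxidant genes of the Keap1 and cnc pathway, the fly form of the Nrf2 system, 3 were higher and 0 lower, with a median of 0.14, against 0.06 in GFP RNAi cells: Men, the sulfiredoxin Srx and Keap1 itself, the inhibitor of cnc. Srx was 351, 296 and 265 at 168 hr and 180.03, 188 and 189 at the first time. Calls for Men, Srx and Keap1 were lost with the arrays scaled to a common median. Srx and Keap1 passed the test of the difference from GFP RNAi cells, and Men did not. cnc itself was 2110.4, 2451 and 2250.4 at 168 hr and 1174, 1167 and 336 at the first time, above all first values without passing (log2 change 1.503, adjusted p = 0.0599). It was also higher by 0.87 in GFP RNAi cells, and the test of the difference did not pass (0.64, adjusted p = 0.123). Heat shock proteins and their DnaJ partners gave 0 higher and 0 lower of 15 with limma, with a median of 0.00. The difference test called 3 upwards and 1 downwards, beside 12.1% and 9.97% of all probesets tested.

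Several of the largest increases fell outside these pathways. MFS3, a transporter of the major facilitator superfamily, had the highest fitted log2 change, with 4064, 3850.1 and 5322 at 168 hr and 66.5, 18.9 and 306 at the first time, a ratio of means of 33.8 (log2 5.21 ± 0.53 SE, adjusted p = 0.00504). The first values of experiments 1 and 2 lay under 100, so this ratio rests on the first value of experiment 3. At 72, 96, 120 and 168 hr it was 18.9, 86.9, 392 and 3850.1 in experiment 2 and 306, 1416, 2146 and 5322 in experiment 3, so experiment 3 stood higher throughout. On GFP RNAi arrays it was at most 114 at 168 hr and at most 107 at the first time. CG10126, CG5646 and CG4630 were at least 9.73, 7.12 and 10.1-fold higher against a signal of 100, with log2 changes of 3.60, 3.49 and 3.09. Septin4, a member of the septin family of filament-forming GTPases, was 328, 367 and 654 at 168 hr and 10.1, 9.6 and 22.6 at the first time, at least 4.50-fold higher against a signal of 100. CG30022 was 3028, 3579 and 3872 at 168 hr and 581, 449.9 and 553 at the first time, a 6.62-fold change, and its other probeset gave a log2 change of 2.56 beside 2.65. It passed 1000 by 96 hr in both experiments, with 1162 in experiment 2 and 1355 in experiment 3.

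daw, an activin-like ligand of the TGF-beta family, was 1935, 2829 and 1745 at 168 hr and 396, 422 and 213 at the first time, a 6.31-fold change (adjusted p = 0.000706). daw in GFP RNAi cells was 541, 639 and 197 at 168 hr and 522, 548 and 122 at the first time. c(2)M, a protein of the meiotic synaptonemal complex, was 417, 762 and 300.2 at 168 hr and 56.1, 48.1 and 56.6 at the first time, at least 4.93-fold higher. CG10063 was 529.5, 431 and 977 against 26.9, 95.7 and 172. JhI-26, a gene inducible by juvenile hormone, was 3568, 4172 and 3444 at 168 hr and 779, 711 and 1025 at the first time. None of these groups overlap. The wider list of 22 ecdysone and juvenile hormone response genes gave 2 higher and 1 lower, with a median of 0.49, against 0.23 in GFP RNAi cells. The medians were 0.06, 0.17 and 0.52 in experiments 1, 2 and 3, and 0.07 in the fit without experiment 3.

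**Figure D4:**
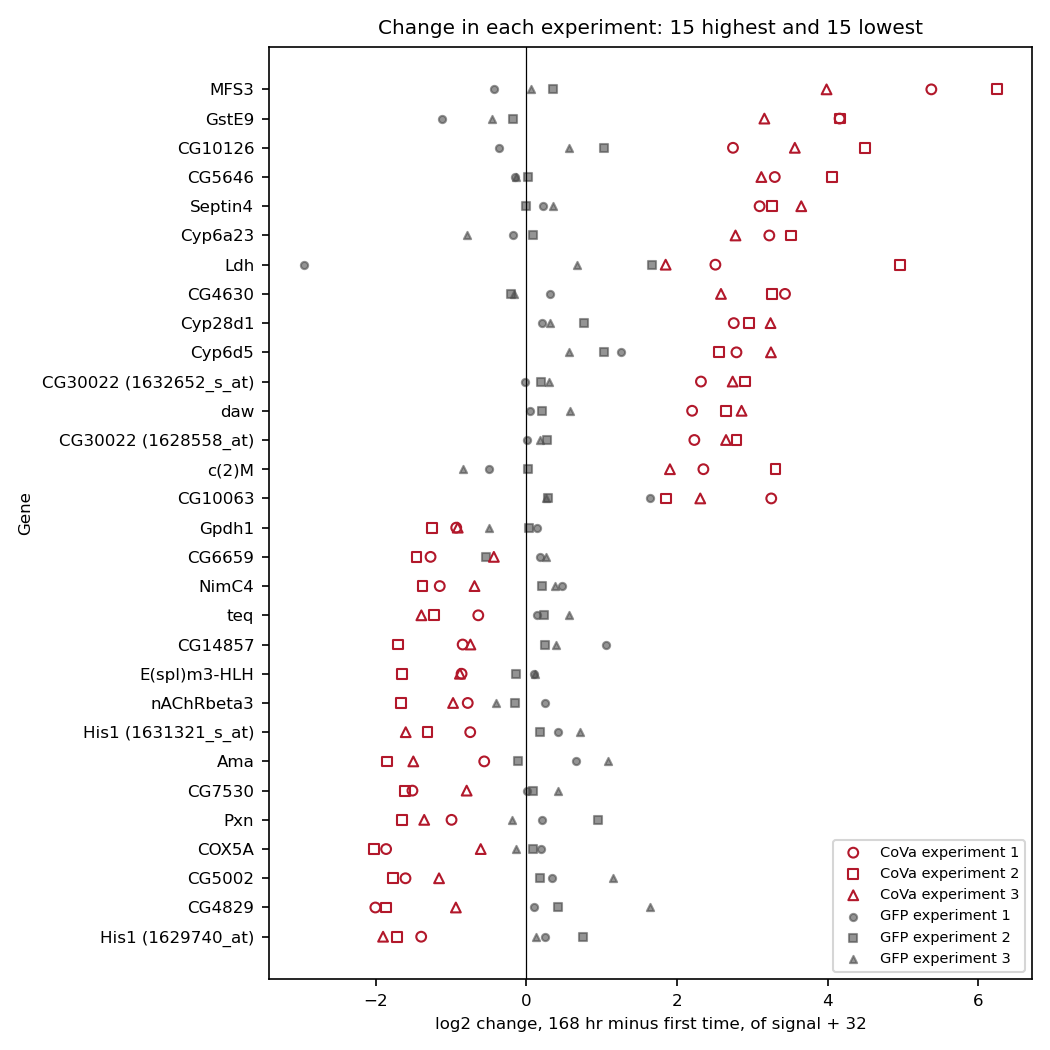
Log2 change in signal at 168 hr against the first time for the 15 named probesets with the largest increases and the 15 with the largest decreases, one point per experiment, in CoVa and in GFP RNAi cells. All CoVa points lie on the side of their group, which was required because genes were chosen for the same direction in every experiment. The means run from 5.21 for MFS3 to -1.67 for His1.

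Some genes that charge tRNAs or serve mitochondrial upkeep rose by small amounts. Of 30 aminoacyl-tRNA synthetases 8 were higher and 0 lower, with a median change of 0.32, against -0.06 in GFP RNAi cells, and the difference test called 14 upwards and 0 downwards. The 8 calls became 3 at a common median or without experiment 1, 4 after quantile normalization or with no filter, and 0 in the paired arrays alone or without experiment 2 or 3, and a filter at 200 gave 12. TrpRS was 3695, 4213 and 3848 at 168 hr and 2312, 2055 and 2279.6 at the first time, all above the first values. GlyRS, ValRS and LeuRS changed by 0.79, 0.63 and 0.60 on the log2 scale. The synthetases' medians at 96, 120 and 168 hr were 0.29, 0.22 and 0.29 in experiment 2 and 0.19, 0.18 and 0.19 in experiment 3, flat after 96 hr. Of 17 genes of ATF4 and of serine, one-carbon and amino acid stress metabolism 3 were higher and 2 lower, with a median of 0.34. The higher ones included crc, the fly ATF4, at 9199.9, 9681 and 8631 against 6751, 6616 and 6145, and Irbp18, a partner of bZIP factors, which changed by 1.11. The change of crc did not pass the test of the difference from GFP RNAi cells, where crc changed by 0.29 (difference 0.20, adjusted p = 0.19). trbl, a pseudokinase that slows the cell cycle, was one of the 2 lower ones (-0.72).

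Of 21 genes of mitochondrial protein import and quality control 6 were higher and 0 lower, with a median of 0.21, against 0.03 in GFP RNAi cells. The 6 calls became 3 at a common median, with no replicate block or without experiment 1, 2 with no filter, and 0 in the paired arrays alone or without experiment 2 or 3. Among the proteases, the matrix protease Lon was 722, 779 and 1113 at 168 hr and 433, 467 and 603 at the first time. ClpX, Afg3l2 and YME1L, subunits of other mitochondrial proteases, changed by 0.62, 0.61 and 0.59. Alr, a protein of the disulfide relay that imports proteins into the intermembrane space, was 1829, 1741 and 2159 against 670.2, 674 and 962. Of 12 genes of p53, caspases and cell death 6 were higher and 0 lower, with a median of 0.37, against 0.01 in GFP RNAi cells. The 6 calls became 1 under either other scaling or with no filter, 3 with no replicate block or without experiment 1, and 0 in the paired arrays alone or without experiment 2 or 3. CG2017, a gene that responds to p53, was 2186, 2514 and 1847 at 168 hr and 1145, 942 and 1093 at the first time. Ku80, which binds broken DNA ends, changed by 0.71, and the caspases Dronc and Dcp-1 by 0.58 and 0.56. The calls of Ku80, Dronc and Dcp-1 were lost under both other scalings. In the Hif pathway 2 of 6 were higher and 0 lower, Ldh and sima, the oxygen-regulated alpha subunit. The list median was 0.82, against 0.10 in GFP RNAi cells, and was uneven, at 0.07, 0.80 and 1.38 in experiments 1, 2 and 3. sima was 804, 916 and 678 at 168 hr and 439, 566 and 171 at the first time, lowest in experiment 3 at 72 hr, and it was not called with the arrays at a common median. In GFP RNAi cells sima was also higher, by 0.46 on the log2 scale, without passing (difference 0.64, limma adjusted p = 0.047).

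Genes of DNA synthesis fell together. Of 34 measured 21 were lower and 0 higher, with a median change of -0.49, against 0.13 in GFP RNAi cells and 0.08 over all probesets. All 34 had a negative change, the medians were -0.40, -0.58 and -0.54 in experiments 1, 2 and 3, and the difference test called 30 downwards and 0 upwards. The 21 calls became 11 with no filter, 13 without experiment 1, and 0 in the paired arrays alone or without experiment 2 or 3, while the list median stayed between -0.61 and -0.45 under every one of these settings and both scalings. Mcm3, a subunit of the helicase that opens replication origins, was 862, 810.3 and 769.7 at 168 hr and 1568, 1525 and 1633 at the first time (log2 change -0.93 ± 0.10 SE, adjusted p = 0.00529). The groups stood far apart next to their spread. At 72, 96, 120 and 168 hr Mcm3 was 1525, 1598, 1175 and 810.3 in experiment 2 and 1633, 1386, 1195 and 769.7 in experiment 3. In GFP RNAi cells it was 1468, 1614 and 1458 at 168 hr and 1348, 1217 and 1453 at the first time. Mcm5 and dpa, also helicase subunits, and Sld5, of the GINS complex that works with them, changed by -0.86, -0.76 and -0.74. The list's medians at 96, 120 and 168 hr were -0.03, -0.26 and -0.58 in experiment 2 and 0.02, -0.20 and -0.54 in experiment 3, near 0 at 96 hr and largest at the end.

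Of 26 genes of mitosis and cell cycle control 8 were lower and 0 higher, with a median of -0.37, against 0.14 in GFP RNAi cells, and the difference test called 16 downwards. Without experiment 1 there were 5 calls, and 0 in the paired arrays alone or without experiment 2 or 3. tum, the RacGAP of the central spindle, was 1226, 1188 and 1039 at 168 hr and 2371, 2123 and 2003 at the first time. scra, the anillin of the cleavage furrow, cid, the centromeric histone, and the spindle kinesin Klp61F changed by -0.89, -0.66 and -0.61. Each of the 4 had all values at 168 hr under all first values. The medians of this list at 168 hr against 72 hr were -0.49 in experiment 2 and -0.18 in experiment 3.

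Histone probesets were among the largest decreases. Of 3 histone genes with a symbol of their own, 1 was lower and 0 higher. His1, the linker histone, was 129.8, 144 and 79.5 at 168 hr and 394, 549 and 385 at the first time by one probeset (log2 change -1.67 ± 0.15 SE, adjusted p = 0.00294), and 1584, 1457 and 968 against 2676, 3663 and 3004 by another. In GFP RNAi cells the brighter one was 4649, 4653 and 4638 at 168 hr and 3451, 4105 and 2820.4 at the first time. A probeset annotated to several His2A copies was 542, 509 and 458 at 168 hr and 1997, 2396 and 1746 at the first time (log2 change -1.95, adjusted p = 0.0017). In experiment 2 it was 2396, 1868, 709.6 and 509 at 72, 96, 120 and 168 hr, and in experiment 3 it was 1746, 1416, 816 and 458, lower at each step in both. Replication histone genes are present in many copies, and their probesets read the family rather than one gene.

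**Figure D5:**
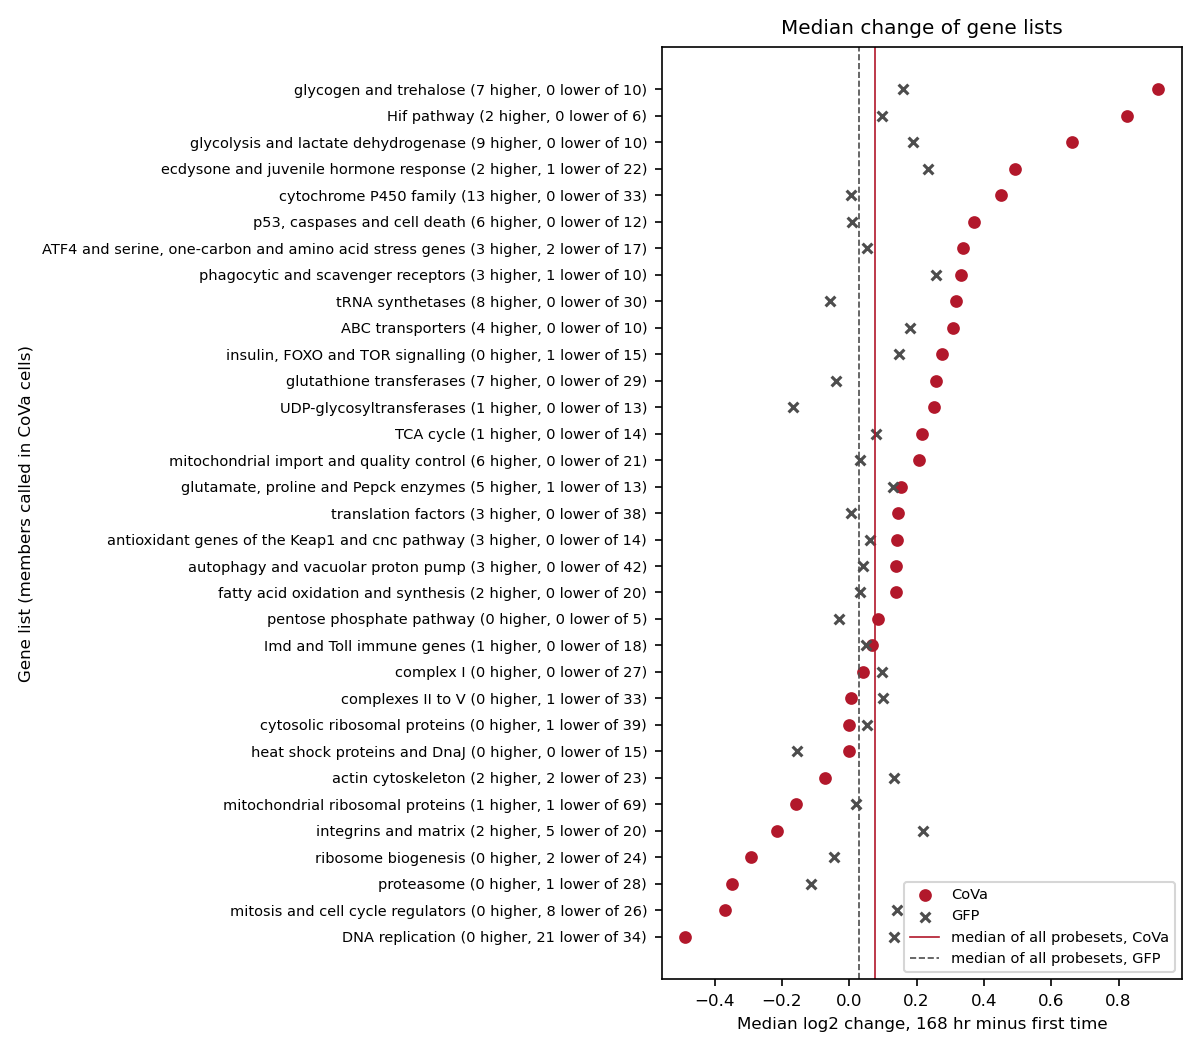
Median log2 change in signal at 168 hr against the first time for each gene list, in CoVa and in GFP RNAi cells, with the median over all probesets tested (0.08 in CoVa RNAi cells). Glycogen and trehalose genes (0.92) and glycolysis (0.66) lie to the right and DNA replication (-0.49) to the left in CoVa RNAi cells.

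Genes of adhesion and phagocytosis divided. Of 20 integrin and matrix genes 2 were higher and 5 lower, with a median change of -0.21, against 0.22 in GFP RNAi cells, and the difference test called 3 upwards and 11 downwards. if, the integrin alpha subunit PS2, was 313, 233 and 188 at 168 hr and 660.2, 665 and 314 at the first time. In GFP RNAi cells it was 989, 987 and 929.9 at 168 hr and 772, 725 and 399 at the first time (difference -1.66, adjusted p = 0.00169). Pxn, the matrix enzyme peroxidasin, was 991, 418 and 50.4 at 168 hr and 2004, 1382 and 179 at the first time, lower in each experiment with groups that overlap, since experiment 3 stood low at both times. Ama, a secreted immunoglobulin-domain protein, was 40.2, 27.6 and 72.9 against 74.4, 183 and 265. ItgaPS4, another integrin alpha subunit and a lamellocyte marker, was higher, at 239, 301 and 616 against 92.5, 41.4 and 108.

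Of 10 phagocytic and scavenger receptors that passed the filter, of 22 on the array, 3 were higher and 1 lower. Their median was 0.33, against 0.26 in GFP RNAi cells. The medians were -0.16, 0.36 and 0.59 in experiments 1, 2 and 3, and 0.13 in the fit without experiment 3. drpr, the engulfment receptor Draper, was 2286, 2314 and 1222 at 168 hr and 850.1, 812 and 288 at the first time, and also higher in GFP RNAi cells by 0.88 without passing (difference 0.73, adjusted p = 0.0319). NimC4, a Nimrod receptor for apoptotic cells, was the lower one, at 93.4, 106 and 51.7 at 168 hr and 246, 327 and 103 at the first time, at least 2.26-fold lower against a signal of 100. Its groups overlap at the first value of experiment 3. eater, a receptor for bacteria, was 648, 726 and 66.6 against 171, 178 and 9.6, higher within each experiment and far lower in experiment 3 than in the others.

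Several of these genes are also markers of blood cell types. Of 11 plasmatocyte markers 7 passed the filter, of which 2 were higher (eater and crq) and 1 lower (Pxn), and their summed signal was between 7154 and 7628 at 168 hr and between 4885 and 8809 at the first time. Of 6 lamellocyte markers 5 passed and 2 were higher, ItgaPS4 and PPO3, a lamellocyte phenoloxidase at 393, 491 and 588 against 106, 190.3 and 367, and the summed signal was 11469.7 to 13175 against 8228 to 12664. Crystal cell markers summed to between 336 and 482 at 168 hr and between 342 and 406 at the first time, with lz and PPO1 near the floor. Neuron markers summed to between 839 and 1001 at 168 hr and between 481 and 719 at the first time, and in GFP RNAi cells to between 758 and 837 and between 563 and 819, with ChAT, nSyb, Appl and para under 100 on every CoVa RNAi array. The brightest of them was elav, a neuronal RNA-binding protein, at 498, 518 and 482 at 168 hr and 309, 417 and 63.3 at the first time in CoVa RNAi cells, and at 389, 440.1 and 374 and then 395, 467 and 48.8 in GFP RNAi cells. Its change of 1.12 did not pass (adjusted p = 0.132), and experiment 3 was low at 72 hr in both. Fat body markers summed to 421 to 489.6 against 341 to 576, and muscle markers to 3032 to 4078 against 2326 to 3519.6. None of the kept members of the crystal cell, neuron, fat body and muscle lists were called. The part of other cell types in these results was not tested.

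The respiratory chain to which CoVa belongs showed few calls, beside 9.84% of all probesets tested. Of 27 complex I genes 0 were higher and 0 lower with limma, with a median change of 0.04, against 0.10 in GFP RNAi cells, and the difference test called 0 upwards and 2 downwards. Of 33 genes of complexes II to V 0 were higher and 1 was lower, which was CoVa itself, and the median was 0.00. Of 69 mitochondrial ribosomal proteins 1 was higher and 1 lower (median -0.16), though the difference test called 3 upwards and 15 downwards. Of these 69, 55 had a negative change, and the medians were 0.08, -0.25 and -0.31 in experiments 1, 2 and 3. Of 39 cytosolic ribosomal proteins 0 were higher and 1 lower (median 0.00). Proteasome genes had 0 higher and 1 lower of 28, Rpn3, with a median of -0.35, against -0.11 in GFP RNAi cells, and 26 of the 28 had a negative change. With a filter at 200 there were 6 lower, and the difference test called 2 upwards and 6 downwards. Their medians at 96, 120 and 168 hr were -0.29, -0.54 and -0.53 in experiment 2 and -0.40, -0.69 and -0.36 in experiment 3, so that in experiment 3 the lowest point was at 120 hr. Ribosome biogenesis gave 0 higher and 2 lower of 24 (median -0.29, with 1 upwards and 9 downwards by the difference test), translation factors 3 higher and 0 lower of 38 (median 0.15), and the Imd and Toll immune genes 1 higher and 0 lower of 18 (median 0.07).

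Counts in the lists of growth control and turnover are given beside 6.64% higher and 3.2% lower over all probesets tested. Of 15 genes of insulin, FOXO and TOR signalling 0 were higher and 1 was lower, Sesn, a stress-induced inhibitor of TOR, with a list median of 0.28. The difference test called 2 of them upwards and 1 downwards, beside 12.1% and 9.97% of all probesets tested. Thor had the largest change of this list, 1.97, with all values at 168 hr above all first values, without passing (adjusted p = 0.0727). Thor changed by -0.37 in GFP RNAi cells, and the test of the difference passed (2.34, adjusted p = 0.000328). Of 42 autophagy and proton pump genes 3 were higher and 0 lower (median 0.14), of which Atg1, the kinase that starts autophagy, was 998, 1194 and 957 at 168 hr and 584, 455 and 200.3 at the first time. Of 20 genes of fatty acid oxidation and synthesis 2 were higher and 0 lower (median 0.14), Acadvl and CPT2, both of mitochondrial oxidation, at 0.48 and 0.41. The calls of Acadvl and CPT2 were lost under both other scalings. Of 23 actin genes 2 were higher, spir and cib, and 2 lower, Arpc4 and Act79B (median -0.07). The difference test called 1 actin gene upwards and 6 downwards, and neither spir nor cib passed it. In GFP RNAi cells spir was also higher, by 0.75 on the log2 scale, without passing. Of 5 pentose phosphate genes 0 were called in either direction by limma (median 0.08).

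The largest decreases outside the lists were small next to the increases. CG7530 was 558, 499 and 636 at 168 hr and 1652, 1591 and 1126 at the first time (log2 change -1.31, adjusted p = 0.0106). E(spl)m3-HLH, a target of Notch signalling, was 559.9, 287 and 578 against 1042, 972 and 1093, and nAChRbeta3, a subunit of a nicotinic acetylcholine receptor, was 341, 212 and 193 against 608, 742 and 409. None of these groups overlap. The serine protease teq was 1978, 1662 and 442 against 3097, 3924 and 1215, lower in each experiment with overlap, since experiment 3 stood low at both times. CG5002, CG14857 and CG6659 changed by -1.51, -1.10 and -1.05 on the log2 scale. In GFP RNAi cells the log2 changes of these 7 genes ran between -0.10 and 0.57.

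The study named a short list of genes by a stringent comparison of CoVa with GFP RNAi on these same arrays, so their direction here is not independent evidence. Of 21 measured 17 were higher and 1 was lower between the first time and 168 hr, with a median change of 1.66, against -0.04 in GFP RNAi cells. Naprt, which starts NAD+ synthesis from nicotinic acid, was 3021, 3305 and 3105 at 168 hr and 992, 837 and 1118 at the first time, and Tpc1, the mitochondrial thiamine pyrophosphate carrier, was 2273, 2854 and 3124 against 893, 725 and 1120.0. The 3 that did not pass, Pgk, Gdh and Nup50, were already below their GFP RNAi values at the first time. Gdh, glutamate dehydrogenase, was 387, 683 and 578 at 168 hr and 923, 792 and 530.2 at the first time, against 3081, 3314 and 3059 and then 2299, 2318 and 2087 in GFP RNAi cells. Its change was -0.43 (adjusted p = 0.34) and 0.49 in GFP RNAi cells, and the difference of -0.92 passed (adjusted p = 0.0273). Nup50, a nuclear pore protein, was 405, 378 and 254 at 168 hr and 617, 559 and 345 at the first time, lower within each experiment without passing (adjusted p = 0.0784), and 1121, 1232 and 1293 at 168 hr and 1335, 1463 and 1352 at the first time in GFP RNAi cells.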

How the data were processed

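Total RNA was hybridised to Affymetrix Drosophila Genome 2 arrays, 1 array per condition, time and experiment. The deposited values were model-based signal intensity on a linear scale, which the authors made with dChip after scaling to the array of median intensity. The submitters' processing notes also name MAS5. The 75th percentile of the deposited values still differed between arrays, and a change is relative to that scaling. Depth has no meaning for arrays, whose number limits the precision.

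From 18952 probesets 183 controls were left out. Of the 18769 left, 13646 had 1 gene symbol in the platform annotation, 402 had several and were not named, 4712 had none, and 9 were named from the study's supplement. Values were tested as log2(signal + 32) with limma 3.58.1 in R 4.3.3 (lmFit, eBayes), with a signal of 100 on at least 3 of 20 arrays as filter and Benjamini-Hochberg adjustment at 0.05. Folds are ratios of mean signals, written as at least the ratio to 100 where the lower mean was under 100, and a log2 change understates that of dim genes. The 10 CoVa RNAi arrays were fitted with 4 stages and the experiment as a block. The block comes from the methods, which describe independent time courses, and same-numbered arrays deviated together (correlations 0.167, 0.325 and 0.523 in CoVa RNAi cells), although arrays of experiments 1 and 2 also did so with each other (0.350 and 0.319). CoVa minus GFP differences of matched arrays were fitted the same way, and the course on the 8 arrays of experiments 2 and 3. Tables were handled in Python 3.11.15. The fit was tested on simulated data.

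Named genes were the 15 largest changes in each direction past the threshold with 1 gene, the same direction in 3 experiments and a mean of at least 100 in the higher stage, 2 to 4 called members of each list, the 10 largest CoVa minus GFP differences, the study's stringent list and CoVa. Others named in the text (Cyp12a5, cnc, Thor and marker genes) were chosen after their values were seen. A gene with several probesets entered a list by its brightest. Symbols shared by unrelated genes were removed from the lists. The members and lists were chosen with earlier results of these data known. Alternatives covered scaling, added value, filter, block, variance model and left-out experiments. No sequence is shown.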

Additional observations from a re-analysis of the deposited data

Results flagged for a closer look

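The change from the first time to 168 hr differed between CoVa and GFP RNAi cells by the test of the difference itself (limma on 10 matched pairs of arrays) for 1192 probesets upwards and 983 downwards. The named genes with the 10 largest fitted differences on the log2(signal + 32) scale were MFS3 (5.21), GstE9 (4.41), CG5646 (3.58), Cyp6a23 (3.46), Ldh (3.31), CG10126 (3.19), Septin4 (3.15), CG4630 (3.11), c(2)M (2.96) and Pepck1 (2.74). Most had signals under 100 at the first time or in GFP RNAi cells, so these sizes depend on the 32 added and their order is not a rank of changes. All 10 were higher at 168 hr in each of the 3 experiments in CoVa RNAi cells. For those named as the largest increases, the rule that chose them required this. Groups of 3 arrays were too small to look for single outlying arrays.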

How the results depend on the processing

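Of the 655 probesets higher and 315 lower at 168 hr in CoVa RNAi cells, 326 and 124 were called with no replicate block (all 326 and 124 among those of the blocked fit), 386 higher with the arrays at a common median, 130 lower with no filter, and 524 lower with a straight line over time. With the 6 arrays of the 3 pairs alone, 46 were higher and 2 lower. Leaving out 1 experiment gave 0 to 469 higher and 0 to 205 lower. For the difference from GFP RNAi cells (1192 upwards, 983 downwards), a common median gave 722 upwards and 1217 downwards, quantile normalization 1015 and 1159, no filter 516 and 365, the pairs alone 781 and 516, and leaving out 1 experiment 0 to 608 and 0 to 567. At 96 hr against 72 hr an intensity trend in the variance gave 2 higher. At 120 hr the 2 higher became 0 with no replicate block, quantile normalization, a common median or no filter. At 168 hr against 72 hr, 27 were higher and 3 lower with no replicate block, 259 and 328 after quantile normalization, 261 and 457 at a common median, 143 and 21 with no filter, while 378 were lower with a filter at 200 and 408 with the trend. The cause of these differences was not tested. Probesets chosen in experiment 1 at 1.5 on the log2 scale had medians of 1.58 and 1.67 (higher) and, in experiment 3, -0.23 (lower), and at a common median the higher set had 0.91 in experiment 2; these alternatives were chosen after seeing the data. The plasmatocyte marker median of 0.10 became -0.024 at a common median and ranged from -0.16 to 0.11 with 1 experiment left out, the low end without experiment 3. Course fits of experiments 2 and 3 leave no residual degrees of freedom without either, so none was made. Of 112 named probesets past the threshold, 112 lost the call without experiment 2, 80 without experiment 3, 31 without experiment 1, 91 in the pairs alone, 40 with no replicate block, 27 with no filter, 15 at a common median and 10 after quantile normalization, and 0 to 5 under the others. Arrays that sit near background limit the dim genes, whose changes depend on the added value.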
